A study of Mus musculus with 5 samples.

Results

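The cells described here are the Scd1-high adipocytes of 3T3-L1 cultures on day 6 of differentiation. 3T3-L1 is a line of mouse fibroblasts that are committed preadipocytes and fill with lipid when induced. A cell was a member when it had at least 500 detected genes, at most 20% of its unique molecular identifiers (UMIs, each a counted RNA molecule) from mitochondrially encoded genes, and at least 10000 UMIs. It also had to hold fewer than 2000 UMIs per 1000000 UMIs of the cell (CPM of the cell) from 10 cell-division genes together, at least 100 CPM from Adipoq and at least 1500 CPM from Scd1. The rule found 1070 members, 512 in the P-G3 library and 558 in the untreated library of day 6, of 16713 kept cells and 21895 barcodes in the whole series. Scd1, Adipoq and the 10 division genes chose the cells, so their values are a description and were left out of every count of genes.

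Adipocytes make fat in a chain of steps. Glucose carbon leaves the mitochondrion as citrate, ATP citrate lyase (Acly) and acetyl-CoA carboxylase (Acaca) turn it into malonyl-CoA, and fatty acid synthase (Fasn) builds palmitate from it. Stearoyl-CoA desaturase (Scd1) puts a double bond into the product, and acyltransferases such as Dgat2 esterify it into the triglyceride of the lipid droplet. SREBP transcription factors are known to raise the genes of both fatty acid and cholesterol synthesis. Ffar4 is a receptor for long-chain fatty acids and Cfd is complement factor D, a protease secreted by adipocytes as adipsin. In GRCm38, Scd1 (ENSMUSG00000037071) lies at chr19:44394455-44407879 (minus strand), Ffar4 at chr19:38097071-38114263 (plus strand) and Cfd at chr10:79890853-79892655 (plus strand), with levels counted near the 3' end of their transcripts.

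The series holds 5 groups with 1 library each. Confluent cells were induced with dexamethasone, insulin and IBMX, a phosphodiesterase inhibitor, and afterwards kept in insulin. P-G3, a PAMAM dendrimer polycation, was given at 10 µg/mL from the start of induction. The groups used here are day 6 with P-G3, day 6 untreated, day 3 with P-G3 and day 3 untreated, and the remaining group is day 0, untreated and before induction. All came from 1 cell line and were detached with trypsin before 3' single-cell sequencing. With 1 library per group, treatment and library cannot be told apart, no difference has a replicate check, and no test was made. The intervals given are exact 95% intervals that cover counting error only.

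Libraries held 3247 to 5719 barcodes and 92556168 to 179449285 UMIs. Members had a median of 60561 UMIs per cell with P-G3 and 65375 untreated, and 1 barcode was shared between the 512 and the 558 members. They were set against 3 kinds of non-dividing cells with 10000 or more UMIs. Scd1-low adipocytes met the same rule except that Scd1 was under 1500 CPM, and numbered 817 with P-G3 and 340 untreated. Adipoq-low cells were day 6 cells with Adipoq under 100 CPM, 523 with P-G3 and 617 untreated. Day 3 adipocytes had Adipoq at 100 CPM or more with no condition on Scd1, 360 with P-G3 and 184 untreated. Levels of a class are CPM of its UMIs summed over cells, values of single cells are CPM of that cell, and ratios are log2 ratios of CPM + 1.

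The label has 2 markers that the rule did not use, Ffar4 and Cfd. They were chosen with earlier results of these data known, so their levels are a description and no independent check. Ffar4 stood at 55.0 CPM with P-G3 and 63.6 CPM untreated in Scd1-high cells. In Scd1-low adipocytes it stood at 23.2 and 24.7 CPM, and in Adipoq-low cells at 2.36 and 3.02 CPM, with P-G3 given before untreated. Cfd stood at 2826 CPM with P-G3 and 1549.9 CPM untreated in Scd1-high cells, against 1384 and 763 CPM in Scd1-low and 128 and 108 CPM in Adipoq-low cells. Both markers were thus highest in the Scd1-high cells of each library. After each cell was thinned to 10000 UMIs, 29.9% of P-G3 members and 31.9% of untreated members had a UMI of Ffar4. The shares were 13.2% and 12.6% in Scd1-low adipocytes and 1.7% and 2.1% in Adipoq-low cells. How much of the Adipoq-low share was background RNA was not tested. Without thinning, the shares of members were 53.9% and 59.0%. Markers of most other cell types were near 0 in the members. The macrophage markers summed to 2.44 CPM with P-G3 and 2.49 CPM untreated, with Ptprc, Adgre1 and Lyz2 at 0 in both. Endothelial markers summed to 1.13 and 1.76 CPM and hepatocyte markers to 0.563 and 0.595 CPM. Muscle markers summed to 38.6 CPM with P-G3 and 45.2 CPM untreated, against 28.2 and 24.0 CPM in Scd1-low cells, with Myod1, Myog and Myh3 at 0. Chondrocyte and osteoblast markers summed to 17.8 and 28.1 CPM, against 11.7 and 25.4 CPM in Scd1-low cells, with Acan and Col2a1 at 0. Markers of thermogenic adipocytes summed to 149 and 137 CPM, against 61.1 and 42.9 CPM, with Dio2 at 0. The part of these markers in the results was not tested. Preadipocyte markers summed to 326 CPM with P-G3 and 403 CPM untreated, against 725 and 965 CPM in Scd1-low and 3154 and 5053 CPM in Adipoq-low cells.

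Scd1-high cells made up a smaller share of the adipocytes with P-G3 than without. They were 38.5% of the 1329 non-dividing Adipoq-positive cells with P-G3 (exact Clopper-Pearson interval 35.9 to 41.2%), against 62.1% of 898 untreated (58.9 to 65.3%). Adipoq-positive cells themselves were 71.8% of the non-dividing cells with P-G3 and 59.3% untreated. Of all kept cells with 10000 or more UMIs, Scd1-high cells were 27.2% with P-G3 (25.2 to 29.3%) and 36.2% untreated (33.8 to 38.7%). The share was thus lower with P-G3 over either denominator, while the share of cells past the Adipoq threshold was higher. The gap among adipocytes was 23.6 percentage points lower with P-G3 and lay between 17.9 and 25.2 points under 8 other settings of the rule. At the strictest mitochondrial setting, at most 10% of UMIs, the gap over all cells with 10000 or more UMIs was 3.9 points, against 9.0 points under the main rule.

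Within the members, Scd1 covered a wide range. With P-G3 the cells ran from 1506 to 26284 CPM of Scd1, with a median of 3171 and quartiles of 2112 and 4897. Untreated cells ran from 1501 to 37179 CPM, with a median of 4798 and quartiles of 2773 and 8464. Cells at 10000 CPM or more were 1.05% of adipocytes with P-G3 (14 cells) and 12.4% untreated (111 cells). The threshold lies in a continuous distribution. Just outside it, at 1250 to 1500 CPM, were 72 P-G3 and 34 untreated cells, and just inside it, at 1500 to 1750 CPM, were 59 P-G3 and 28 untreated cells. A further 16 P-G3 and 35 untreated cells passed the Scd1 threshold with Adipoq under 100 CPM and were not members. Median Adipoq in the members was 1117 CPM with P-G3 and 610 CPM untreated.

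**Figure D1:**
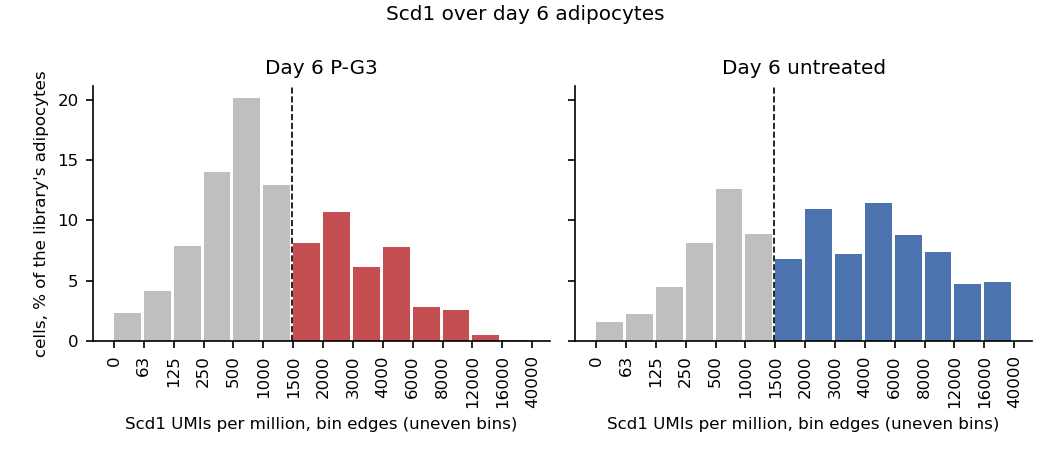
Share of day 6 adipocytes (percent, vertical axis) by Scd1 level (CPM of the cell, horizontal axis with uneven bins), with P-G3 and untreated. The dashed line marks the threshold of 1500 CPM, above which 38.5% of P-G3 and 62.1% of untreated adipocytes lie.

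Next the Scd1-high cells were compared with the Scd1-low adipocytes of the same library. Higher in them were many genes of fatty acid and cholesterol synthesis, such as Fasn and Idi1, and lower were most S phase genes. With P-G3, 255 of 4896 genes at 20 CPM or more were at least 1.5-fold higher in Scd1-high cells, 5.21% of those compared, and 194 (3.96%) were at least 1.5-fold lower. Untreated, 296 of 5688 genes (5.2%) were higher and 331 (5.82%) lower. TMM scaling gave 223 higher and 230 lower with P-G3, and 328 and 274 untreated. Gene lists were counted over members at 5 CPM or more. At least 1.5-fold higher were 12 of 22 genes of fatty acid synthesis with P-G3 and 14 of 22 untreated, and 14 and 16 of 20 genes of cholesterol synthesis. At least 1.5-fold lower were 14 of 19 S phase genes with P-G3 and 19 of 21 untreated. Of the 4810 genes compared in both libraries, 180 were higher in both, which is 74.7% of the 241 higher with P-G3 and 69.0% of the 261 higher untreated. A further 159 were lower in both, 85.0% of the 187 lower with P-G3 and 54.3% of the 293 lower untreated. The 2 comparisons share no cells, but both split the cells on Scd1. Median depth was alike in the classes, 60561 UMIs in Scd1-high against 59221 in Scd1-low cells with P-G3, and 65375 against 62700 untreated. The mitochondrially encoded share was higher in Scd1-high cells, with medians of 7.05% against 5.14% with P-G3 and 8.63% against 5.95% untreated. Among cells with at most 10% mitochondrial UMIs, 262 genes were higher and 191 lower with P-G3, and 243 were higher and 201 lower untreated.

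In fatty acid synthesis, the synthase and several other genes were higher in Scd1-high cells. Fasn was at 410 CPM in Scd1-high against 158 CPM in Scd1-low cells with P-G3, and at 517 against 158 CPM untreated, log2 ratios of 1.37 (conditional binomial interval of the plain ratio 1.34 to 1.42) and 1.71 (1.66 to 1.76). Thrsp (Spot 14), a nuclear protein that promotes lipogenesis, was at 145 against 60.2 CPM with P-G3 and at 136 against 16.6 CPM untreated, a log2 ratio of 2.96 untreated. In the P-G3 members 5 cells held 10.6% of the Thrsp UMIs, and in the untreated members 5 cells held 35.2%. Without the 5 top cells of each class Thrsp was at 131 against 53.5 CPM with P-G3 and at 89.2 against 11.0 CPM untreated. Elovl3, an elongase of very long chain fatty acids, was at 28.7 against 8.09 CPM with P-G3 and at 29.9 against 2.62 CPM untreated. Scd2, another stearoyl-CoA desaturase gene, had log2 ratios of 0.98 with P-G3 and 1.20 untreated. Acss2, which makes acetyl-CoA from acetate, had log2 ratios of 1.30 with P-G3 and 1.22 untreated. Ratios were smaller for Acaca and Acly. Acaca had log2 ratios of 0.74 with P-G3 and 0.84 untreated, and Acly had 0.62 with P-G3 and 0.70 untreated. Elovl6, the elongase that makes stearate from palmitate, was at 11.0 against 11.6 CPM with P-G3 and at 9.20 against 13.1 CPM untreated, so it did not share the pattern. Of 22 measured genes of the list, 21 lay above 0 with P-G3 and 12 were past 1.5-fold higher, and 20 and 14 untreated. The list's median log2 ratio was 0.62 with P-G3 and 0.68 untreated, against all-gene medians of 0.04 and -0.01.

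In cholesterol synthesis, all 20 measured genes lay above 0 in each library, with 14 past 1.5-fold higher and a median log2 ratio of 0.71 with P-G3, and 16 and 0.77 untreated. Idi1, which isomerizes isopentenyl diphosphate, was at 462 CPM in Scd1-high against 162 CPM in Scd1-low cells with P-G3, a log2 ratio of 1.51, and its log2 ratio was 1.08 untreated. Cyp51, the lanosterol demethylase, was at 182 against 57.4 CPM untreated, a log2 ratio of 1.64, and its log2 ratio was 1.32 with P-G3. The ratios of Sqle, the squalene epoxidase, were 1.06 with P-G3 and 1.01 untreated, and those of Hmgcs1, the HMG-CoA synthase, 0.91 and 0.89. Among the genes that regulate SREBP, Insig1, which holds the SREBP complex in the endoplasmic reticulum, had log2 ratios of 1.16 with P-G3 and 1.17 untreated. The transcript of Srebf1 itself, which encodes SREBP-1, differed by less, with log2 ratios of 0.30 with P-G3 and -0.02 untreated.

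The promoters of 6 genes that were higher in Scd1-high cells are shown. Fasn, Thrsp, Idi1, Hmgcs1 and Cyp51 were picked as windows that hold CCAAT, the box of the factor NF-Y, and Mgll, the monoglyceride lipase, as one that holds none. Each sequence covers 250 bases before to 50 after the RefSeq start of the gene in GRCm38.p6, read 5′ to 3′ on the gene's strand. They lie at chr11:120824498-120824797 (minus strand) for Fasn, chr7:97417501-97417800 (minus) for Thrsp, chr13:8885356-8885655 (plus) for Idi1, chr13:119690101-119690400 (plus) for Hmgcs1, chr5:4104648-4104947 (minus) for Cyp51 and chr6:88724162-88724461 (plus) for Mgll. Capitals mark CCAAT on either strand, which reads ATTGG on the opposite one, and in Hmgcs1 also a match to the sterol-response motif TCACNCCAC, while in Mgll they mark CACGTG.
Fasn: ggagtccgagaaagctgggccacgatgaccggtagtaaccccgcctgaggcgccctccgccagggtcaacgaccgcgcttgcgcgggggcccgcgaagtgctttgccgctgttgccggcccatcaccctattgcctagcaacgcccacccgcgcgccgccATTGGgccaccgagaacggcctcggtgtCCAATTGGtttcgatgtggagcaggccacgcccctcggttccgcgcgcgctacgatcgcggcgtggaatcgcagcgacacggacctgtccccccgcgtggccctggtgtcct
Thrsp: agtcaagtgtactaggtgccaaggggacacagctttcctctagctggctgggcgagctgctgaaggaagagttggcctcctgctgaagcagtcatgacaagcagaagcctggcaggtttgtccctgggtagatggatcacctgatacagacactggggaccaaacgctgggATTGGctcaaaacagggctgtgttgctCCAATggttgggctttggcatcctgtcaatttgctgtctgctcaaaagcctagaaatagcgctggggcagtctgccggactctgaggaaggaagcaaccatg
Idi1: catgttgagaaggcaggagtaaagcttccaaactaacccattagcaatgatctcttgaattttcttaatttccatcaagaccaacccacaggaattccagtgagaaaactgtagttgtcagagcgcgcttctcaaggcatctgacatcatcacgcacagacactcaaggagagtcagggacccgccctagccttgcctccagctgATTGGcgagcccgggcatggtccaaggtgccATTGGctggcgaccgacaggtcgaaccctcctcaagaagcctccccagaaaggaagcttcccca
Hmgcs1: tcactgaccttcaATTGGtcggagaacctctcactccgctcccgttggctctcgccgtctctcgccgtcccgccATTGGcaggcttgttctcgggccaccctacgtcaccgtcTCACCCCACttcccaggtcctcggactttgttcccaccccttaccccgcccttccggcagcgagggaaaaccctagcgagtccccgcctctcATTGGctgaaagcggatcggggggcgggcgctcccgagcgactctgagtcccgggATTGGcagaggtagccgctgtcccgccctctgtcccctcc
Cyp51: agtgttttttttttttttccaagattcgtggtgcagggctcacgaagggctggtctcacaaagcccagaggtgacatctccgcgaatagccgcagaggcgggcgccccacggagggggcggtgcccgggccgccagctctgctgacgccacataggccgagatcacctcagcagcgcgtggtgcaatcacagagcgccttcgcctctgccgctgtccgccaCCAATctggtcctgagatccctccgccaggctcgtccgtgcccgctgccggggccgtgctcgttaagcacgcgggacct
Mgll: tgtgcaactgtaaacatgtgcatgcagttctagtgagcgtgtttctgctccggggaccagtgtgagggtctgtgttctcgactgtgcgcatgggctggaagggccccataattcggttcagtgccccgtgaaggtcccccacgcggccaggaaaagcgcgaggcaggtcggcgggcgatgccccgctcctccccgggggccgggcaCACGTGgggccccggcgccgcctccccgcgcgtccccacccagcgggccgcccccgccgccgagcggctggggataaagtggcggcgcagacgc
The Fasn window holds 3 matches to CCAAT, of which 2 overlap on opposite strands, and the Hmgcs1 window holds 4. CCAAT was found in 13 of the 15 cholesterol synthesis genes that had an entry (86.7%), in 12 of 22 fatty acid synthesis genes (54.5%), in 6 of 17 triglyceride synthesis genes (35.3%) and in 3 of 10 lipolysis genes (30%). It was found in 37.9% of all 27025 promoters of this length. TCACNCCAC was found in 1 cholesterol synthesis gene and 1 fatty acid synthesis gene, and in 1.22% of all promoters, searching both strands. The windows of Ffar4 and Cfd hold no CCAAT either. CACGTG, an E-box, was found in 7.24% of all promoters, in 2 of 15 cholesterol synthesis genes (13.3%), 2 of 22 fatty acid synthesis genes (9.09%), 3 of 17 triglyceride synthesis genes (17.6%) and 2 of 10 lipolysis genes (20%), and of the windows shown only in that of Mgll. A match is a run of letters and not a measured binding site.

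Some genes that store triglyceride and some that release fatty acids from it were past 1.5-fold higher in Scd1-high cells. Of the lipolysis genes, 8 of 12 were past 1.5-fold higher with P-G3 and 7 of 12 untreated, and none was past 1.5-fold lower, with medians of 0.79 and 0.72. Over all genes, 5.21% with P-G3 and 5.2% untreated were past 1.5-fold higher. That share is over genes at 20 CPM or more, while the lists take genes from 5 CPM, so the 2 bases are unlike. Mgll, the monoglyceride lipase of the last step of lipolysis, was at 76.0 against 17.7 CPM with P-G3 and at 89.0 against 17.9 CPM untreated, log2 ratios of 2.04 and 2.25. Pnpla2, the adipose triglyceride lipase, had log2 ratios of 0.85 with P-G3 and 1.22 untreated. Its inhibitor G0s2 had -0.19 and -0.01, and Lipe, the hormone-sensitive lipase, 0.23 and 0.24. Of the triglyceride synthesis genes 7 of 17 were past 1.5-fold higher with P-G3 and 8 of 18 untreated. Dgat2, which adds the last acyl chain, had log2 ratios of 0.93 with P-G3 and 1.06 untreated, and Gpd1, which supplies glycerol phosphate, 0.77 and 1.03. Of the lipid droplet proteins, Cidea was at 37.4 against 8.29 CPM with P-G3 and at 32.7 against 2.11 CPM untreated, and its relative Cidec, which fuses droplets, had log2 ratios of 0.88 and 1.30. Plin1, the main droplet coat protein of adipocytes, differed by less, with 0.48 and 0.34. On the uptake side, Cd36, the fatty acid transporter, had 1.01 with P-G3 and 1.25 untreated, Lpl, the lipoprotein lipase, 0.77 and 0.81, and Slc2a4, the insulin-responsive glucose transporter GLUT4, 0.84 and 0.96.

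Several secreted proteins were also higher in Scd1-high cells. Of the 17 measured adipokines and secreted proteins, 10 were past 1.5-fold higher and 1 past 1.5-fold lower in each library, with medians of 0.74 with P-G3 and 0.73 untreated. Over all genes at 20 CPM or more, 5.21% with P-G3 and 5.2% untreated were past 1.5-fold higher. Lcn2, the siderophore-binding lipocalin 2, was at 406 against 81.5 CPM with P-G3 and at 455 against 111 CPM untreated. Without the 5 cells with most Lcn2 in each class it was at 287 against 55.1 CPM with P-G3 and at 369 against 56.2 CPM untreated. Apoc1, a lipoprotein component, was at 194 against 53.7 CPM with P-G3 and at 236 against 57.9 CPM untreated. C3, the central complement protein, had log2 ratios of 1.46 with P-G3 and 1.44 untreated. Ghrh, the growth hormone-releasing hormone, was at 1341 against 525 CPM with P-G3 and at 816 against 253 CPM untreated. The resistin-like gene Retnla was at 83.0 against 30.6 CPM with P-G3 and at 115 against 35.5 CPM untreated, but 5 cells held 53.0% of its UMIs in the P-G3 members. Its log2 ratio with P-G3 was 1.41 over all cells and -0.01 among cells with 30000 to 60000 UMIs. Retn, encoding resistin, had log2 ratios of 0.68 with P-G3 and 0.73 untreated. Outside the secreted proteins, Sat1, which acetylates polyamines, was at 511 against 182 CPM with P-G3 and at 441 against 153 CPM untreated. The named genes Smim41 and Depp1 were also higher, Smim41 with 1.46 and 1.81 and Depp1 with 1.51 in the P-G3 library.

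**Figure D2:**
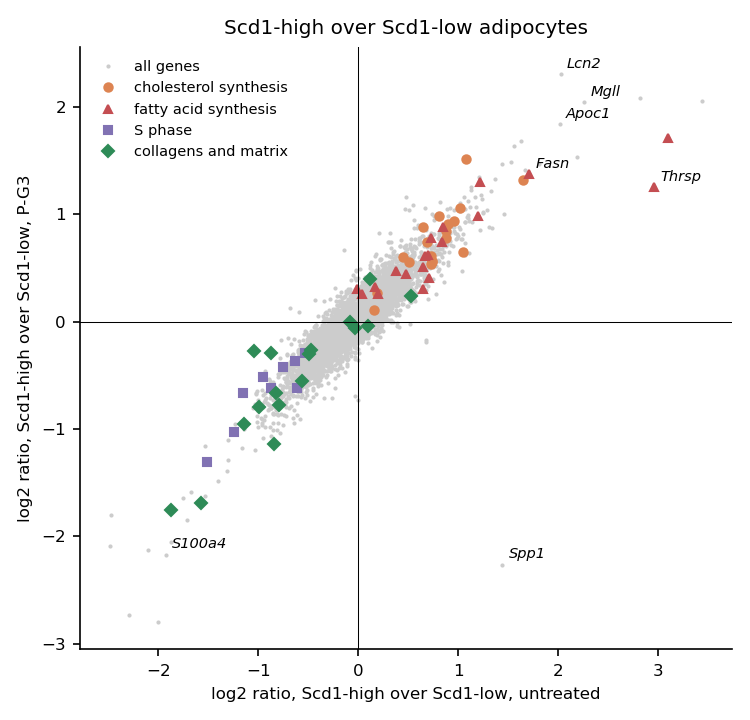
Log2 ratio of CPM + 1, Scd1-high over Scd1-low adipocytes, for each gene at 20 CPM or more, with P-G3 on the vertical axis and untreated on the horizontal axis. Cholesterol and fatty acid synthesis genes lie to the upper right, S phase and matrix genes mostly to the lower left, and Spp1 alone lies far to the lower right.

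Replication genes and part of the matrix genes were lower in Scd1-high cells. None of the measured S phase genes lay above 0, and 14 of 19 with P-G3 and 19 of 21 untreated were past 1.5-fold lower, with medians of -0.85 and -1.08. Cells of both classes had been chosen for low division genes, and the 10 genes of the rule were left out of the list. Below that threshold the Scd1-low cells reached higher. The 95th percentile of the summed division genes was 749 CPM in Scd1-low against 168 CPM in Scd1-high cells with P-G3. Untreated it was 986 against 195 CPM. The part of such cells in the S phase ratios was not tested. The histone genes Hist1h1b and Hist1h2ap had log2 ratios of -3.02 and -2.48 untreated, where reads of near-identical histone copies make the single gene uncertain. Of the collagens and matrix genes 10 of 22 with P-G3 and 12 of 24 untreated were past 1.5-fold lower. Over all genes at 20 CPM or more, 3.96% with P-G3 and 5.82% untreated were past 1.5-fold lower. Col1a1, the main fibrillar collagen chain, was at 22.8 against 75.5 CPM with P-G3 and at 59.4 against 178 CPM untreated. The calcium-binding protein gene S100a4 was at 12.8 against 61.0 CPM with P-G3 and at 22.7 against 89.1 CPM untreated. Emp3 had log2 ratios of -2.05 with P-G3 and -1.87 untreated, Acta2, the smooth muscle actin, -1.85 and -1.71, and Cxcl12, a chemokine of stromal cells, -1.65 and -1.75. In Acta2 5 cells held 63.8% of the UMIs of P-G3 members and 67.9% of those of untreated members. Dlk1, the preadipocyte factor that keeps cells undifferentiated, was at 103 against 273 CPM with P-G3 and at 131 against 326 CPM untreated. Pcolce, a procollagen processing enhancer, had -1.58 and -1.67. The further named genes were Ly6a, Serpinf1 and Nop56 with P-G3, at -1.59, -1.29 and -1.18, and Timp4, Ptn and Postn untreated, at -2.48, -2.00 and -1.87.

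The general adipocyte regulators differed little between the classes. Pparg, the nuclear receptor that drives adipogenesis, was at 335 against 298 CPM with P-G3 and at 282 against 284 CPM untreated. Cebpa, its partner factor, had log2 ratios of 0.29 with P-G3 and 0.36 untreated, and Fabp4, the fatty acid-binding protein, had 0.32 and 0.29. Of the adipogenic transcription factors, none of 18 with P-G3 and 2 of 20 untreated were past 1.5-fold higher and none was past 1.5-fold lower, with medians of 0.20 and 0.00. Glycolysis gave a median of 0.04 over 17 genes with P-G3 and 0.00 untreated. Of the ribosomal protein genes, 84 of 91 lay below 0 with P-G3 and 85 of 92 untreated, at medians of -0.40 and -0.44, and 2 and 9 of them were past 1.5-fold lower. The mitochondrially encoded genes had medians of 0.32 with P-G3 and 0.42 untreated.

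**Figure D3:**
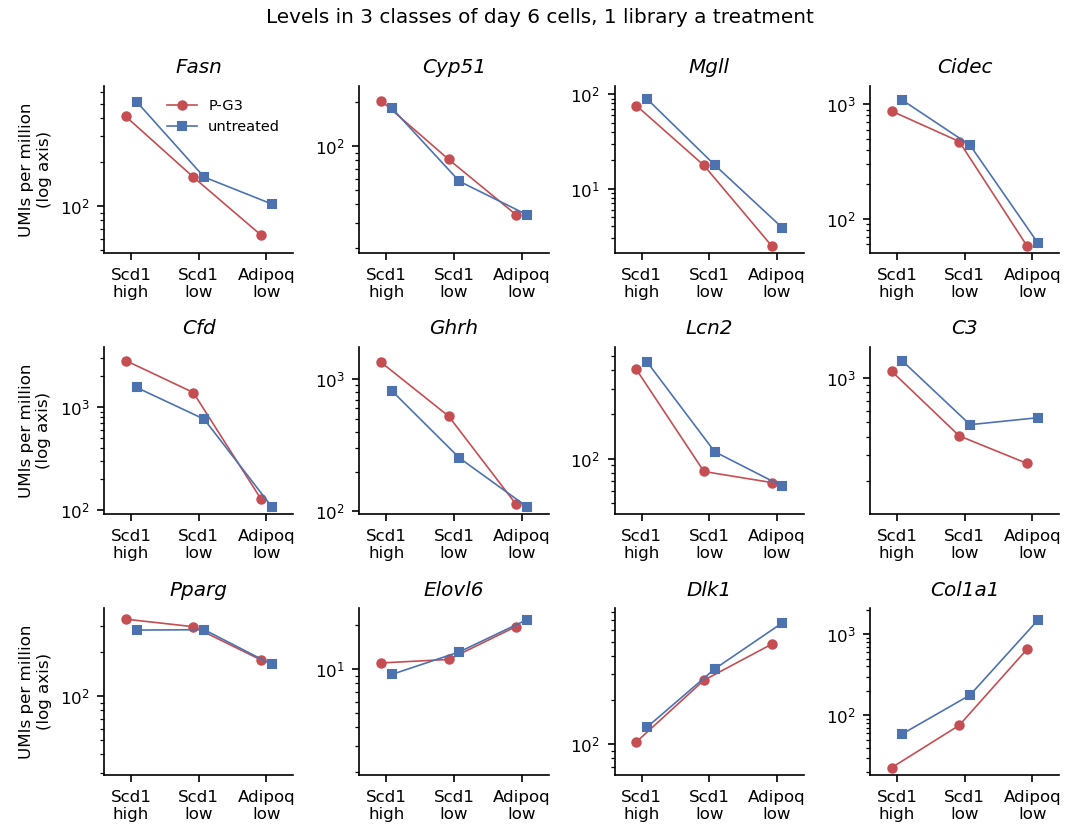
Levels (CPM, log axis) of 12 genes in Scd1-high, Scd1-low and Adipoq-low cells of day 6, with P-G3 and untreated, 1 point per library and class. Fasn, Mgll, Cidec, Cfd and Ghrh step down over the 3 classes, Dlk1 and Col1a1 step up, and Pparg is at a like level in Scd1-high and Scd1-low cells.

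Inside the adipocytes these levels followed Scd1 in steps rather than at the threshold alone. With P-G3, Fasn stood at 113, 189, 201, 287, 471, 661 and 645 CPM over 7 bins of rising Scd1 from 0 to above 10000 CPM. Untreated, it stood at 116, 166, 219, 302, 385, 562 and 984 CPM over the same bins. Members with Scd1 of 1500 to 3000 CPM thus had about as much Fasn in both libraries. Cyp51 ran from 56.8 CPM in the lowest to 422 CPM in the highest bin with P-G3 and from 46.1 to 353 CPM untreated. C3 ran from 314 to 2285 CPM with P-G3 and from 387 to 2286 CPM untreated. Pparg stayed between 227 and 347 CPM with P-G3 and between 254 and 300 CPM untreated over all bins. Dlk1 stood at 338 CPM in the lowest and 86.2 CPM in the highest bin with P-G3 and at 367 and 91.2 CPM untreated. The highest P-G3 bin holds only 14 cells. Ghrh differed between the libraries at matched Scd1, with 1167 CPM with P-G3 against 498 CPM untreated at 1500 to 3000 CPM, and 1446 against 751 CPM at 3000 to 6000. Cfd did likewise, with 2535 against 1143 CPM and 3107 against 1432 CPM in those bins.

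**Figure D4:**
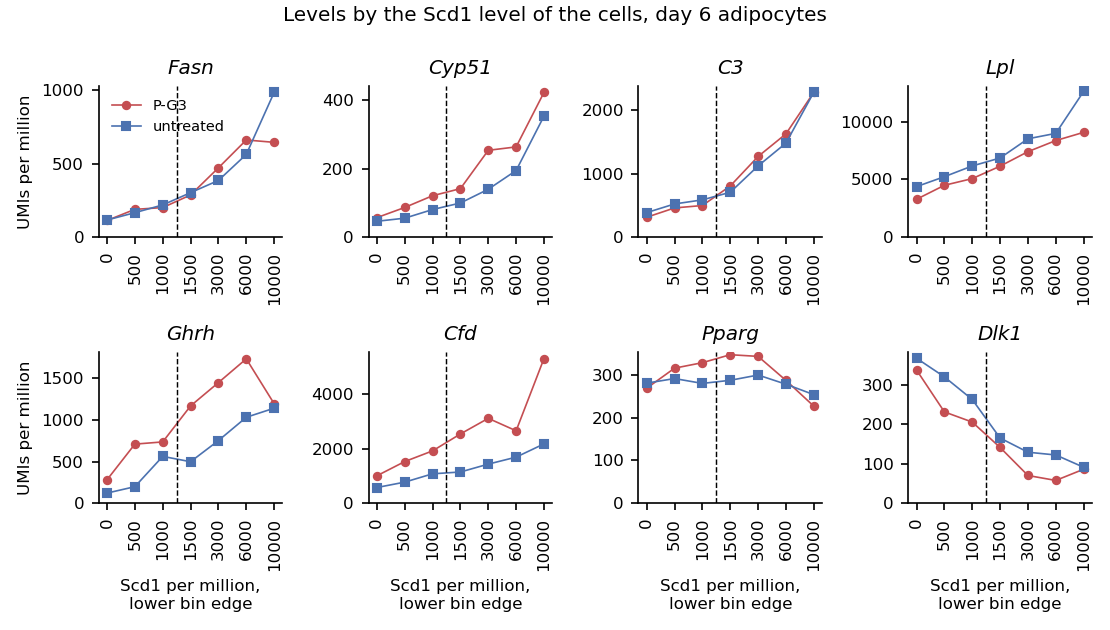
Level (CPM, vertical axis) of named genes over 7 bins of Scd1 (CPM of the cell, horizontal axis) in day 6 adipocytes, with P-G3 and untreated. Fasn, Cyp51 and C3 climb over the bins in both libraries, Pparg varies less than these, and the last P-G3 point rests on 14 cells.

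Across single members, thinned to 10000 UMIs, the genes most like Scd1 among 2276 were Scd2, C3, Fasn, Lpl, Sat1, Cyp51, Cd36, Mpc2, Adig and Apoc1. Scd2 had a Spearman rho of 0.36 over 512 P-G3 cells and 0.51 over 558 untreated cells, and Fasn had 0.33 and 0.43. These values share each cell's library and thinned total and are given as a description, beside a median rho over all genes of 0.0008 with P-G3 and -0.015 untreated. Least like Scd1 were Ptma, a nuclear acidic protein, Hsp90ab1, Npm1, Eef1g, Rack1, Ppp1r14b, Bgn, Eef1b2, Phb2 and Atp5g1, of which Ptma had -0.34 and -0.41. The mitochondrial share had a rho with Scd1 of 0.19 with P-G3 and 0.37 untreated, and the UMI total -0.01 and 0.04.

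Some of these genes were high in part of the members only. Ghrh stood at 1000 CPM or more in 33.2% of P-G3 members (170 cells) and 19.9% of untreated members (111 cells), against 13.1% and 8.82% of Scd1-low cells. Lcn2 reached that level in 8.01% of P-G3 members (41 cells) and 10.4% of untreated members (58 cells). In a typical member Lcn2 was much lower, at 100 CPM or more in 29.9% of P-G3 and 42.5% of untreated cells. Thrsp was at 100 CPM or more in 32.6% of P-G3 members and 19.5% of untreated members, and at 1000 CPM or more in 1.95% and 3.05%. Cfd was at 1000 CPM or more in 72.1% and 47.3%. C3 reached 1000 CPM in 42.6% of P-G3 and 48.4% of untreated members and 100 CPM in 98.4% and 99.5%. Fasn reached 1000 CPM in 6.05% and 12.5%, and Retnla reached 100 CPM in 8.79% and 18.5%. More P-G3 than untreated members were past the 1000 CPM level for Ghrh and Cfd, and fewer for Fasn. For Lcn2, C3 and Thrsp the shares at 1000 CPM were also lower with P-G3, with counting intervals that overlapped. The intervals of Thrsp were 0.94 to 3.56% with P-G3 and 1.78 to 4.83% untreated, while at 100 CPM its share was higher with P-G3. Cells are not replicates of a treatment, so overlap of these intervals or its absence tests no difference between treatments.

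Against the Adipoq-low cells of the same day, which stand apart by Adipoq as well as Scd1, the members differed over more genes. With P-G3, 552 of 5071 genes (10.9%) were at least 2-fold higher in Scd1-high cells and 292 (5.76%) at least 2-fold lower. Untreated, 445 of 5991 genes (7.43%) were higher and 460 (7.68%) lower. Thrsp was at 145 against 4.56 CPM with P-G3 and at 136 against 3.41 CPM untreated. Cidec was at 872 against 58.2 CPM with P-G3 and at 1085 against 61.9 CPM untreated, and Acsl1, the acyl-CoA synthetase that activates fatty acids, at 1882 against 114 CPM with P-G3. Cholesterol synthesis was again above 0 in all 20 genes in each library, with medians of 1.59 with P-G3 and 1.49 untreated, and lipolysis in all 12, with medians of 1.54 and 1.52. The nuclear respiratory chain was higher in Scd1-high than in Adipoq-low cells in 42 of 43 genes with P-G3 and 43 of 43 untreated, at medians of 0.85 and 0.79. Its member Cyc1 differed little between Scd1-high and Scd1-low cells (log2 0.14 and 0.02). The list's median between those 2 classes is not given here. Of the matrix genes, 21 of 26 with P-G3 and 24 of 28 untreated were past 2-fold lower. Ptn, the growth factor pleiotrophin, was at 2.25 against 602 CPM with P-G3 and at 16.9 against 1217 CPM untreated, and Ctla2a, a cathepsin inhibitor, at 2.00 against 349 CPM and at 4.68 against 250 CPM. Postn, the matrix protein periostin, was at 5.23 against 206 CPM with P-G3. Gpd1 (log2 4.23 untreated), Mgll (4.46 with P-G3 and 4.21 untreated) and Ffar4 (4.06 and 4.01) were also among the 5 highest. S100a4 (-5.85 and -5.28), Rnase4 (-5.51 and -5.13) and, untreated, Acta2 (-5.03) were among the 5 lowest.

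Against the adipocytes of day 3 with the same treatment, the members had more transcript of many adipokines and less of S phase genes. Day and library cannot be told apart here, and the day 3 cells were not chosen on Scd1. With P-G3, 403 of 5128 genes (7.86%) were at least 2-fold higher on day 6 and 235 (4.58%) at least 2-fold lower. Untreated, 446 of 5718 genes (7.8%) were higher and 142 (2.48%) lower. Fatty acid synthesis had 11 of 22 genes past 2-fold higher in each treatment and cholesterol synthesis 10 of 20, and neither had a gene past 2-fold lower. Ghrh was at 1341 CPM on day 6 against 4.65 CPM on day 3 with P-G3 and at 816 against 1.48 CPM untreated, the largest ratio among the named genes in each treatment. Apoc1 was at 194 against 8.67 CPM with P-G3 and at 236 against 7.49 CPM untreated, and Ffar4 at 55.0 against 3.11 CPM and at 63.6 against 3.70 CPM. Cox7a1, a respiratory chain subunit of muscle and brown fat, was at 64.6 against 2.39 CPM untreated, and Cdsn, known as corneodesmosin of the skin, at 211 against 7.74 CPM. Slc2a4 had log2 ratios of 2.32 with P-G3 and 2.55 untreated, while Pparg had 0.66 and 0.56 and Fabp4 0.49 and 0.23. Of the adipokines 12 of 17 with P-G3 and 11 of 17 untreated were past 2-fold higher. S phase genes were past 2-fold lower in 16 of 22 with P-G3 and 12 of 21 untreated, among them Pclaf, a PCNA-associated factor, at 3.07 against 77.4 CPM with P-G3. The other named genes that were higher were Depp1, at 52.5 against 0.21 CPM, Selenbp1, at 81.5 against 2.90 CPM, and Cystm1, with a log2 ratio of 4.02, all with P-G3. Those that were lower were S100a4 in both treatments, Ptn, Hist1h1b and Hist1h2ap with P-G3, and Map7d2, Snhg4, Snhg9 and Isyna1 untreated, of which Map7d2 was at 11.6 against 132 CPM. Only 10 P-G3 and 14 untreated cells of day 3, and none of the 3182 day 0 cells with 10000 or more UMIs, met the whole rule.

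Between treatments, the Scd1-high cells of the P-G3 library had more of carbonyl reductases, cytosolic malate dehydrogenase and farnesyl diphosphate synthase than the untreated ones, and less of collagen, fibronectin and Egr1. Of 5507 genes, 12 (0.218%) were at least 2-fold higher with P-G3 and 57 (1.04%) at least 2-fold lower. This split depends on scaling. The median over these genes was -0.23, and TMM scaling gave 82 higher and 7 lower, median-of-ratios scaling 91 and 5. Ratios also went with transcript length, with a Spearman rho of -0.57 over 8914 genes and a median of 0.08 in the shortest bin of length (median 732 nt) against -0.59 in the longest (9987 nt). With that trend removed, 27 genes were higher and 6 lower. Whether length, the library or the polymer underlies the trend was not tested. Values below are on the total-count scale and are to be read against the all-gene median. In Scd1-low cells the same comparison gave 7 higher (0.128%) and 128 lower (2.34%) of 5479 genes.

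Named genes were chosen to have 1 direction under 3 scalings, so their direction there is no check. Of those that were higher, Cbr1, a carbonyl reductase, stood at 738 CPM with P-G3 against 287 CPM untreated, a log2 ratio of 1.36 (1.33 to 1.39), and its log2 ratio was 1.27 in Scd1-low cells. Its relative Cbr2 was at 278 against 127 CPM. Mdh1, the cytosolic malate dehydrogenase, was at 1493 against 709 CPM, and Fdps, which makes farnesyl diphosphate for sterol synthesis, at 802 against 392 CPM. Agt, encoding angiotensinogen, was at 1003 against 486 CPM. Depp1 had a log2 ratio of 2.37, at 52.5 against 9.39 CPM, and of 1.23 among cells with 30000 to 60000 UMIs, with 34.8% of its UMIs in 5 P-G3 cells and 38.6% in 5 untreated cells. The other 4 were Selenbp1, a methanethiol oxidase, at 81.5 against 33.0 CPM, Fcf1, Lrpap1 and Mrps31, with log2 ratios of 1.28, 1.17, 1.05 and 0.97. All 10 were also higher with P-G3 in Scd1-low cells, with log2 ratios of 0.56 to 1.84. So the differences in these genes were not limited to the Scd1-high cells.

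Among the named genes that were lower, Col1a1 was at 22.8 CPM with P-G3 against 59.4 CPM untreated, a log2 ratio of -1.34 (-1.50 to -1.26), and Fn1, fibronectin, at 79.6 against 197 CPM. Egr1, an immediate early transcription factor, was at 39.0 against 115 CPM, and Zfp36l2, which promotes mRNA decay, at 26.0 against 64.0 CPM. Map4k4, Trim8, Plec, Spop and Arf4 had log2 ratios of -1.33, -1.28, -1.18, -1.17 and -1.14. These 9 genes were lower in Scd1-low cells too, with log2 ratios of -2.35 to -0.95. Of the 9, only Egr1 stayed past 2-fold lower in Scd1-high cells under all other settings, with a ratio of -1.11 at the least. The smallest drops were -0.81 for Col1a1, -0.70 for Fn1 and -0.59 for Plec. Spp1, the secreted matrix protein osteopontin, was at 7.07 CPM with P-G3 against 58.7 CPM untreated, a log2 ratio of -2.89. The ratio ran from -3.48 to -0.70 over the other settings, with -0.70 where cells with Scd1 from 1000 CPM were taken in. It was carried by few cells, since 5 cells held 75.7% of its UMIs in the P-G3 members and 65.0% in the untreated ones.

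By list, the nuclear respiratory chain, beta-oxidation, glycolysis and cholesterol synthesis had medians above the all-gene median of -0.29 over genes at 5 CPM or more, and matrix and insulin signalling genes below it. SREBP regulation and lipoprotein uptake had a median of -0.43 and the mitochondrially encoded genes -0.39. The nuclear respiratory chain had 41 of 43 genes above 0 and a median of 0.30, with Cyc1 (cytochrome c1) at 842 against 454 CPM. Cholesterol synthesis had 14 of 20 above 0 with a median of 0.20, but its members were split, since Fdps stood at 802 against 392 CPM and Sqle at 136 against 175 CPM. Beta-oxidation had 17 of 20 above 0 and a median of 0.19, and glycolysis 13 of 17 and 0.17, with Gapdh at 9093 against 5340.1 CPM. Collagens and matrix had 1 of 23 above 0 and a median of -0.54, with 6 past 2-fold lower. Insulin signalling and glucose uptake had 1 of 21 above 0 with a median of -0.54, and heparan sulfate and polycation entry genes 1 of 14 with -0.56. With the length trend removed the medians were 0.37 for the respiratory chain, 0.50 for cholesterol synthesis, 0.27 for beta-oxidation, 0.41 for glycolysis, -0.20 for the matrix, -0.04 for insulin signalling and -0.12 for heparan sulfate and polycation entry. Fatty acid synthesis had a median of -0.15 with 6 of 22 above 0. Its sign turned under 4 of 20 settings, among them TMM scaling, with 0.15, and removal of the length trend, with 0.20. Of the 20, the 50 CPM filter, the lack of a filter and the other fold cannot change a list median.

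Scd1 itself, which chose the cells, was at 3869 CPM with P-G3 against 6664 CPM untreated in the members. Because members differed in Scd1 between the libraries, they were also compared within ranges of it. Among members with Scd1 of 1500 to 3000 CPM (250 P-G3 and 159 untreated cells) the log2 ratios were 1.37 for Cbr1, 1.04 for Fdps, 0.94 for Mdh1 and -1.13 for Col1a1. Among those of 3000 to 6000 CPM (184 and 168 cells) they were 1.34, 1.18, 1.02 and -2.34. Medians of the respiratory chain were 0.37 and 0.35 in the lower and the higher range, and those of the matrix -0.54 and -0.82. Fatty acid synthesis had a median of 0.07 in the lower range and -0.03 in the higher. The all-gene median within each range is not given here, so these list medians are not set against it.

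Between the treatments, adipocyte genes lay on both sides of the all-gene median of -0.23 over genes at 20 CPM or more. Ghrh was at 1341 CPM with P-G3 against 816 CPM untreated, a log2 ratio of 0.72 (0.69 to 0.74), and its log2 ratio was 1.05 in Scd1-low cells. Cfd had a log2 ratio of 0.87, Retn 0.43 and Fabp4 0.29. Acaca was at 43.9 against 73.8 CPM, a log2 ratio of -0.74, and Cebpa at 107 against 146 CPM. Over the other settings the ratio of Acaca ran from -0.79 to -0.15 and that of Cebpa from -0.51 to -0.11. The size of these 2 differences thus depended on the processing. Lpl had -0.36, Cidec -0.31 and Fasn -0.34, near the all-gene median, so they are not read as lower with P-G3. The signs of these 3, and of Pparg, Plin1 and Ffar4 with 0.25, 0.01 and -0.21, changed under at least 1 alternative setting.

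**Figure D5:**
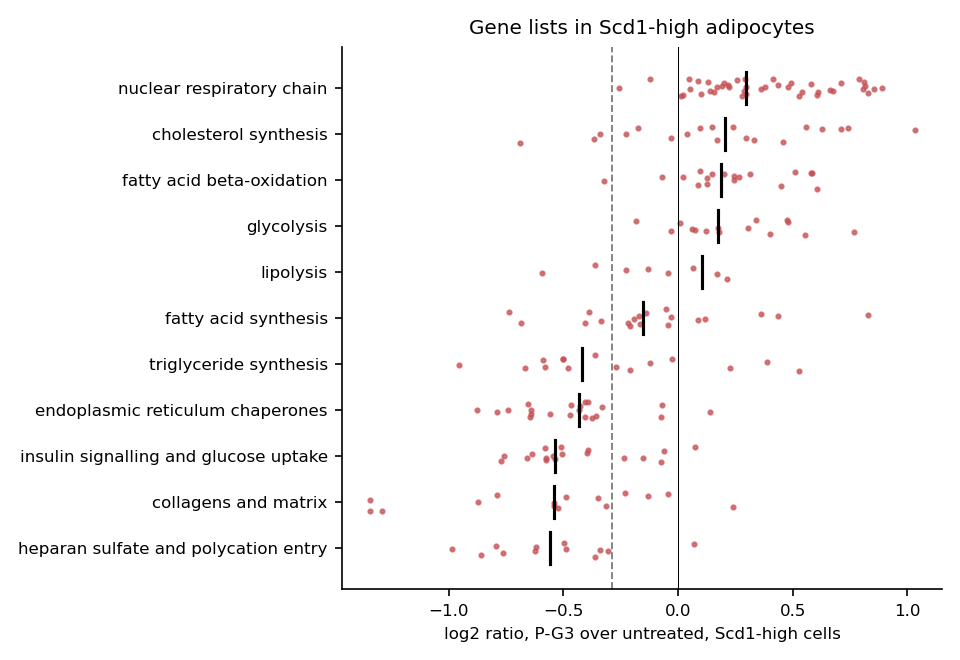
Log2 ratio of CPM + 1, P-G3 over untreated, in Scd1-high cells for members of gene lists. Points are genes at 20 CPM or more, black bars are medians over genes at 5 CPM or more and the dashed line is the all-gene median of -0.29, so the respiratory chain lies to the positive side and collagens and insulin signalling to the negative side. The trend with transcript length was not removed from these values.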

How the data were processed

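Single-cell 3' libraries of 5 groups of 3T3-L1 cells were deposited as matrices of raw UMI counts per gene and cell barcode. The authors made these counts with Cell Ranger against GRCm38, version 3.1.0 per the submitters' processing notes and 5.0.1 per the file headers. The protocol is the v2 chemistry per the labels, while the barcodes resemble v3, so that version is uncertain. Only called barcodes are listed, and the annotation release is not given in the sources used here.

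Counts were summed over the cells of each class with Python 3.11.15, numpy 2.4.6, scipy 1.17.1 and pandas 2.3.3 and scaled to CPM, and TMM factors came from edgeR 4.0.16. Genes at 20 CPM or more in either class were counted past 1.5-fold (Scd1-high against Scd1-low) or 2-fold (all else). The 47 gene lists are described by members at 5 CPM or more, and lists overlap. Named genes are the 10 highest and 10 lowest ratios, or 5 and 5 against Adipoq-low and day 3 cells, at 50 CPM or more with 1 direction under 3 scalings. Mitochondrially encoded, ribosomal, unnamed and rule genes were left out of these. To them come the list members with the largest ratios at 20 CPM or more, and a fixed set of adipocyte genes. Transcript lengths and gene positions are from GENCODE vM21, matched on the Ensembl identifier for 32158 of 32285 genes, and promoters from RefSeq. No doublets were removed, and an alternative dropped the cells in the top 5% by UMIs. The ratio and count steps were tested on simulated counts. Members, lists and 20 alternatives were chosen with earlier results of these data known, and 3 alternatives were added after seeing the values. With 1 library per group no test was made. PCR copies and shared droplets are outside the intervals.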

Additional observations from a re-analysis of the deposited data

Results flagged for a closer look

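Spp1 (osteopontin) went in opposite directions in the 2 libraries and classes. Its log2 ratio of Scd1-high over Scd1-low cells was -2.26 with P-G3 and 1.44 untreated. Its log2 ratio of P-G3 over untreated was -2.89 in Scd1-high cells and 0.82 in Scd1-low cells. The difference between these ratios was not tested, since each class has 1 library. Spp1 stood at 7.07 CPM with P-G3 and 58.7 CPM untreated in Scd1-high cells, and at 37.8 and 21.0 CPM in Scd1-low cells. A single cell held 58.8% of its UMIs in the Scd1-low P-G3 cells. Without the 5 cells with most Spp1 in each class, the levels were 1.74 and 20.7 CPM in Scd1-high and 9.82 and 5.91 CPM in Scd1-low cells, with the P-G3 value before the untreated one. Over the other settings, the log2 ratio of P-G3 over untreated in Scd1-high cells of Spp1 ran from -3.48 to -0.70.

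The other values lie outside the comparisons. On day 3, 10 cells with P-G3 and 14 untreated cells met the whole rule for Scd1-high adipocytes, against none on day 0. On day 6, 169 kept cells with P-G3 and 171 untreated cells with fewer than 10000 UMIs met the rest of the rule.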

How the results depend on the processing

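No paired analysis was possible because each group has 1 library. The difference in the share of Scd1-high cells among adipocytes, P-G3 minus untreated, was -23.6 points under the main rule. It was -19.6 with Scd1 at 1000, -24.7 with Scd1 at 3000 and -25.2 with Adipoq at 200 CPM, and -17.9 with at most 10% mitochondrial UMIs. Over all cells with 10000 or more UMIs it was -9.0, and under the same settings -5.0, -12.0, -7.2 and -3.9. Counts of genes past the fold are given next, in the order P-G3 over untreated in Scd1-high and in Scd1-low cells, Scd1-high over Scd1-low untreated and with P-G3, over Adipoq-low untreated and with P-G3, and over day 3 untreated and with P-G3. The main counts were 69, 135, 627, 449, 905, 844, 588 and 638. At 50 CPM they were 32, 55, 374, 262, 540, 523, 351 and 373, with no filter 173, 316, 1522, 1110, 1880, 1743, 1295 and 1372, and at the other fold (1.5-fold for 2-fold and the reverse) 1196, 1329, 120, 91, 1990, 1893, 1683 and 1677. For Scd1-high and Scd1-low cells between treatments, a pseudocount of 5 gave 34 and 59, cells with 30000 to 60000 UMIs 128 and 214, and removal of the length trend 33 and 30. TMM scaling gave 65 and median-of-ratios scaling 78 in Scd1-low cells, as 51 higher with 14 lower and 64 higher with 14 lower. Thinned cells gave 131 in Scd1-high cells. Members with Scd1 of 1500 to 3000 and 3000 to 6000 CPM, chosen after seeing the data, gave 109 and 141. The cause of these shifts was not tested, except that filters and folds change the number of genes counted by construction. In untreated cells, removal of the length trend gave 331 higher and 245 lower genes in Scd1-high over Scd1-low cells. Of the named genes past the fold in the main comparison, 1 changed sign, Retnla in Scd1-high over Scd1-low P-G3 cells, with -0.011 among cells with 30000 to 60000 UMIs and 1.41 in the main comparison. Named genes within the fold changed sign more often, among them Plin1, Ffar4, Pnpla2 and Fasn in P-G3 over untreated Scd1-high cells and Pparg in Scd1-high over Scd1-low untreated cells. Depth limits the low genes: CPM of a few counts in a class carries wide counting intervals.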

Other observations

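Some gene groups outside lipid synthesis also differed between Scd1-high and Scd1-low adipocytes. Of the immediate early genes, 9 of 18 with P-G3 and 3 of 18 untreated were past 1.5-fold higher in Scd1-high cells, with median log2 ratios of 0.56 and 0.31. Over all genes compared, at 20 CPM or more, 5.21% with P-G3 and 5.2% untreated were past 1.5-fold higher. Branched-chain amino acid breakdown had 4 of 18 genes past 1.5-fold higher and 1 past 1.5-fold lower in each library, with medians of 0.51 with P-G3 and 0.41 untreated. The acute phase gene Hp, encoding haptoglobin, was at 110.1 against 52.7 CPM with P-G3 and at 155 against 73.4 CPM untreated. Slc2a1, the basal glucose transporter GLUT1, was at 102 against 52.5 CPM with P-G3 and at 96.9 against 65.4 CPM untreated. Acadl, which begins the oxidation of long-chain fatty acids, was at 191 against 113 CPM with P-G3 and at 173 against 128 CPM untreated.

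Of the thermogenic list, 3 of 8 measured genes with P-G3 and 5 of 10 untreated were past 1.5-fold higher in Scd1-high than in Scd1-low cells, and none was past 1.5-fold lower. Cidea and Elovl3 are among its members. Untreated, these 2 passed the 5 CPM limit only through the Scd1-high cells, so the counts lean to higher genes and are a description. Over all genes at 20 CPM or more, 5.21% with P-G3 and 5.2% untreated were past 1.5-fold higher.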
